A study of Mus musculus with 289 samples.

Results

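The genes described here are 10 members of the bone morphogenetic protein (BMP) pathway, chosen by symbol from the 15019 genes of a table of single-cell transcriptomes: the receptors Bmpr1a and Bmpr2, the decoy receptor Bambi, the signal carriers Smad1 and Smad5, the inhibitory Smads Smad6 and Smad7, and the targets Id1, Id2 and Id3. All 10 were found. The cells were progeny of Lrig1-expressing epidermal stem cells from tail skin of mice on a mixed CBA and C57BL/6 background. The mice combined the Lrig1-EGFP-ires-CreERT2 allele with the reporter Rosa26-fl/STOP/fl-tdTomato, so that hydroxytamoxifen put on the skin switches on tomato in cells that express Lrig1 and the colour is passed on to their descendants. Every cell used here carried both alleles and had had hydroxytamoxifen. The skin then received either PRT4165, an inhibitor of the ubiquitin ligases Ring1a and Ring1b of Polycomb repressive complex 1, or the vehicle alone, and the comparison asks whether this treatment alters transcription. Tomato-positive cells labelled as keratinocytes were sorted singly into 96-well plates and read by Smart-seq2, which copies full-length mRNA.

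The samples were 289 cells on 4 plates, of which 274 were used: 70 and 55 vehicle cells and 72 and 77 cells given PRT4165, in the order of replicates 1 and 2 that all lists of plate values follow. The labels give all of them the time t0 and the population L1. The plate was the replicate, since cells of 1 plate share their source. The study's methods describe a pair of independent experiments, each with several biological replicates, but the labels tie no cell to an animal and do not say whether the replicate numbers stand for those experiments. The p-values therefore measure the spread between plates, part of which may be technical. In the treatment label, vehicle cells also carry the code PR9 and treated cells PR12, which the labels do not explain, and treatment and code cannot be told apart.

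BMP ligands bring type 1 receptors such as Bmpr1a together with the type 2 receptor Bmpr2, the type 1 receptor phosphorylates Smad1 and Smad5, and these enter the nucleus with Smad4 and switch on genes. Id1, Id2 and Id3, which bind basic helix-loop-helix factors and keep them off DNA, are standard targets, as are Smad6, Smad7 and Bambi, which damp the signal in return. In the hair follicle, BMP signalling is known for holding bulge stem cells at rest, and Bmpr1a is needed for hair shaft differentiation.

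The promoters of Bmpr1a, Bmpr2, Id2, Id3, Smad1, Smad5 and Smad6 were searched on both strands for the letters of a pair of known Smad-binding elements. These were GGCGCC, which is its own reverse complement, and GTCTG, whose reverse complement is CAGAC. Those of Id1, Smad7 and Bambi were not searched. The windows were RefSeq promoters on build GRCm38.p6, reaching from 250 bases before a gene's start to 50 after it. Only the 250 bases before this RefSeq start were searched. For the genes printed here it differs from the start of the gene positions given below. Their stretches all lie inside those positions, and are upstream of the RefSeq start only. There the GGCGCC letters occurred in 9.59% of all 32851 promoters against 42.2% for GTCTG. Stretches around matches are printed for the genes whose levels are described most closely below, 5′ to 3′ on the gene's strand with the match in capitals. Bmpr1a (chr14:34502727-34502756, minus strand), Bmpr2 (chr1:59764162-59764191, plus strand) and Id2 (chr12:25096306-25096335, minus strand) each held GGCGCC, at positions -198, -105 and -231 from the start. Id3 (chr4:136143742-136143771, plus strand) held GTCTG 2 times, and the match at position -68 is shown.
Bmpr1a: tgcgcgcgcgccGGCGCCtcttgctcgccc
Bmpr2: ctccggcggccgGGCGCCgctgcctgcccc
Id2: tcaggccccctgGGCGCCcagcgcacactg
Id3: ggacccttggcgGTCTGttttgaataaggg
Smad5 had 3 windows, 1 with GGCGCC and 1 with CAGAC. Neither element was found in the windows of Smad1 and Smad6, which says only that these letters are not in the 250 bases searched. A match of letters is a description and not a measured site.

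The cells bore the markers of their label: Krt14, a keratin of basal keratinocytes, was detected in 93.1% of cells, Trp63 in 78.8% and Krt5 in 73.7%. Of the 7 listed fibroblast genes in the table, Pdgfra had a count in 2 cells, Col1a1 in 13, Col1a2 in 14, Dcn in 29, Fbln1 in 37, Lum in 68 and Sparc in 81, and the leukocyte marker Ptprc had one in 13. Pecam1, an endothelial gene, was listed in all 274 cells although the endothelial Egfl7 was listed in 10. Depth differed between plates. The median cell of vehicle replicate 1 had 141985 estimated counts, while the medians of the other plates lay between 429383 and 538754. Single cells ranged from 9796 to 3029820 estimated counts. A gene with no count in a cell may therefore be present below the depth of that cell. Some comparisons of shares of cells are also given after thinning to 50000 counts without mitochondrial genes, a depth that 246 cells reached. The classes of cells by Cd34 or Mki67 used below were then set again on the thinned counts. Thinned classes therefore need not hold the same cells.

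Receptors and Id genes were the members most often detected. Bmpr2 had at least 1 count in 67.5% of the 274 cells, Bmpr1a in 56.9%, Id1 in 44.2%, Id3 in 37.2%, Id2 in 36.9%, Smad5 in 33.9% and Smad1 in 32.5%. The inhibitors were rare: Smad7 had a count in 35 cells, Bambi in 13 and Smad6 in 9. Per kilobase of exon, as counts-per-million (CPM) of the summed cells of a plate averaged over the 4 plates, the Id genes led the members: Id2 had 40.6 CPM per kilobase, Id1 had 35.4 and Id3 had 30.6, ahead of Bmpr1a with 24.3, Smad1 with 10.4, Bmpr2 with 7.0 and Smad5 with 4.41. Smad7 had 0.520, Bambi 0.213 and Smad6 0.195. The plate ranges of each neighbouring pair in this order overlapped. Those of Id2 (33.3 to 58.6) and Smad1 (3.56 to 16.1) did not. The order by cells and the order by level thus differed, with Bmpr2 first by cells and sixth by level per kilobase.

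Bmpr1a (chr14:34410734-34503341; gene positions are on build GRCm38) encodes the main type 1 BMP receptor of the follicle. Its plate level was 170.8 and 79.2 CPM with vehicle and 172.2 and 196.2 CPM with PRT4165. Both treated plates lay above both vehicle plates, by little over vehicle replicate 1. Expressed as a log2 fold change, PRT4165 over vehicle, this was 0.54 with a standard error (SE) of 0.59 (edgeR quasi-likelihood test, Benjamini-Hochberg adjusted p = 0.997). It was 1.40 without vehicle replicate 1, and 0.0079 without vehicle replicate 2. Cells with a count made up 52.9% and 43.6% of the vehicle plates and 68.1% and 59.7% of the PRT4165 plates. The mean difference was 15.7 percentage points, and 13.1 after thinning, again with no overlap. The exact two-sided permutation test over plates gave p = 0.333, the smallest that 2 against 2 plates allow. An antisense gene, Gm17110, overlaps exons of Bmpr1a, and the sources used here do not say that the counting used strand, so the reads of the pair cannot be told apart.

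Bmpr2 (chr1:59763400-59879014), the type 2 receptor, had 241 and 101.1 CPM with vehicle and 119.8 and 41.3 CPM with PRT4165. The groups overlapped, since PRT4165 replicate 1 lay between the vehicle plates. The log2 fold change was -1.14 (SE 0.71, edgeR adjusted p = 0.997). Its share of cells barely moved, at 70% and 63.6% with vehicle and 69.4% and 66.2% with PRT4165. Bambi, which resembles a type 1 receptor but lacks its kinase, was found in 6 and 1 vehicle cells and in 4 and 2 PRT4165 cells, at 2.17 and 0.605 CPM and at 1.14 and 0.409 CPM. With so few cells, no difference in Bambi was detectable at this depth.

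Smad1 (chr8:79338395-79399518) had 100.5 and 55.97 CPM with vehicle and 82.7 and 22.3 CPM with PRT4165, a log2 fold change of -0.62 (SE 0.74, edgeR adjusted p = 0.997) that turned to 0.057 without vehicle replicate 1 and to 0.019 without PRT4165 replicate 2. The share of cells differed more between replicate numbers than between treatments. Smad1 was detected in 41.4% and 43.1% of cells on the plates numbered 1 and in 23.6% and 20.8% on the plates numbered 2. Smad5 (chr13:56703010-56742377) had 26.0 and 37.8 CPM with vehicle and 59.4 and 7.67 CPM with PRT4165, so the treated plates were the highest and the lowest of the 4. Its log2 fold change was 0.08 (SE 0.91, edgeR adjusted p = 0.997), and -1.94 without PRT4165 replicate 1.

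The inhibitory Smads sat near the floor of detection. Smad7, which blocks both BMP and TGF-beta receptors, had 1.28 and 4.87 CPM with vehicle and 1.98 and 1.27 CPM with PRT4165, in 8 to 10 cells of every plate. Smad6 (chr9:63953076-64022059), which acts mainly on the BMP branch, was found in 0 and 1 vehicle cells and in 2 and 6 PRT4165 cells. A count of 0 among 70 cells allows a share of up to 4.29%, which lies above the 2.78% of PRT4165 replicate 1. Its log2 fold change of 2.29 (SE 1.89, edgeR adjusted p = 0.997) rests on these 9 cells.

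Id1 (chr2:152736251-152737410) had 39.3 and 32.3 CPM with vehicle and 43.97 and 48.7 CPM with PRT4165. Every PRT4165 plate was above every vehicle plate, with a log2 fold change of 0.39 (SE 0.61, edgeR adjusted p = 0.997). Cells with an Id1 count were 38.6% and 34.5% of the vehicle plates and 45.8% and 54.5% of the PRT4165 plates, a mean difference of 13.6 percentage points (exact permutation p = 0.333), and of 12.3 after thinning. Among cells with a count, the median level was 86.1 and 61.0 CPM with vehicle and 81.7 and 40.6 CPM with PRT4165. The plate with the most Id1-positive cells had the lowest median in those cells.

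Id2 (chr12:25093799-25097140) had 86.4 and 142.9 CPM with vehicle and 85.4 and 81.2 CPM with PRT4165. The treated plates were lower, but PRT4165 replicate 1 was close to vehicle replicate 1, and the log2 fold change was -0.40 (SE 0.52, edgeR adjusted p = 0.997). Single cells weighed heavily on Id2: the highest cell gave between 33.6% and 48.3% of a plate's Id2 counts. Without the cells that had a Cd34 count, the Id2 log2 fold change was 0.14.

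Id3 (chr4:136143497-136145755) had 27.6 and 64.2 CPM with vehicle and 75.1 and 52.4 CPM with PRT4165, and the groups overlapped. Its log2 fold change was 0.55 (SE 0.61, edgeR adjusted p = 0.997). The share of Id3-positive cells was 32.9% and 36.4% with vehicle and 37.5% and 41.6% with PRT4165. These did not overlap, but the mean difference of 4.92 percentage points shrank to 0.94 after thinning, where the plates overlapped.

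**Figure D1:**
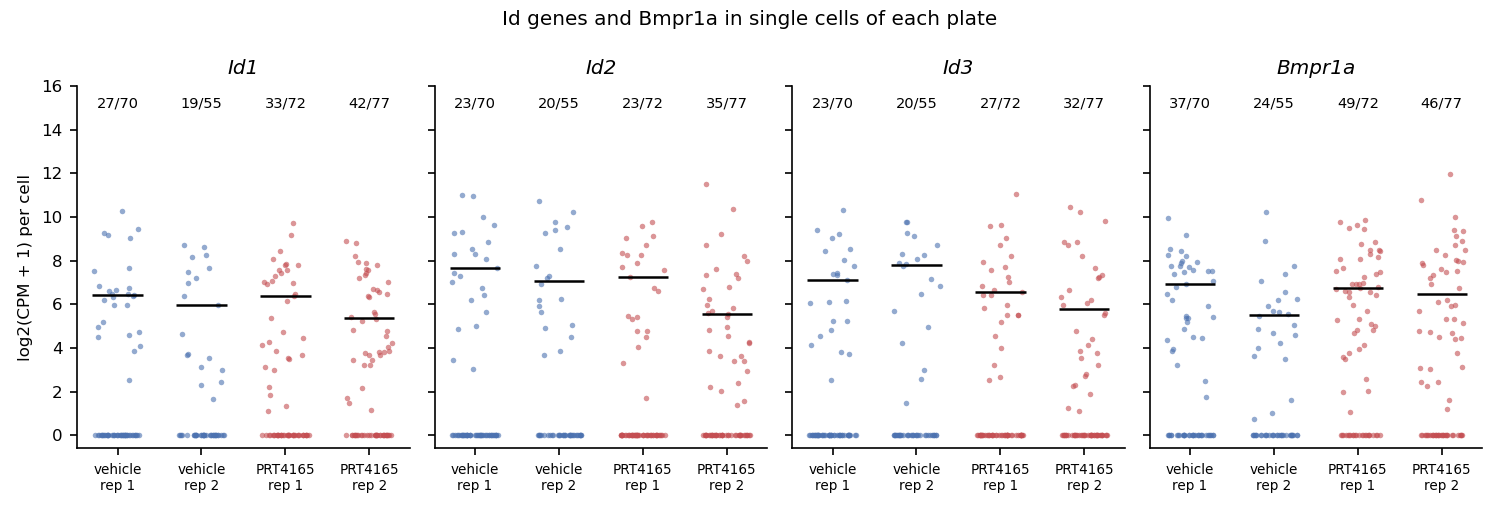
Level of Id1, Id2, Id3 and Bmpr1a in each of 274 cells, as log2(CPM + 1), by plate (blue vehicle, red PRT4165), with cells spread sideways at random; the bar is the median of the cells with a count and the numbers above give those cells of all cells. Many cells lie at 0 for each gene, with 27 of 70 and 19 of 55 vehicle cells and 33 of 72 and 42 of 77 PRT4165 cells above 0 for Id1.

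Over the members as a group, treatment made no difference that passed the test. The edgeR test called 0 of 10 members between PRT4165 and vehicle, where it called 0 of 12791 genes (0.0%). At an unadjusted p under 0.05 it found 0 members against 4.93% of all genes, and DESeq2 called 0 members and 1.34% of all genes. Of the members, 5 had a log2 fold change above 0 and 5 below, with a median of -0.16 beside -0.02 over all genes tested. The plate CPM did not overlap for 4 members (Id1, Smad6 and Bmpr1a higher, Id2 lower), against a background of 31.7% of genes (15.4% higher and 16.3% lower). The shares of positive cells did not overlap for 4 of 10 members (Id1, Id3, Bmpr1a and Smad6, all higher), where 38.9% of all 13919 genes did the same, 30.6% higher and 8.34% lower. After thinning, 2 of these remained, Id1 and Bmpr1a. The counts without thinning were near the background, and the background after thinning was not computed. None of these counts is a result about the members.

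**Figure D2:**
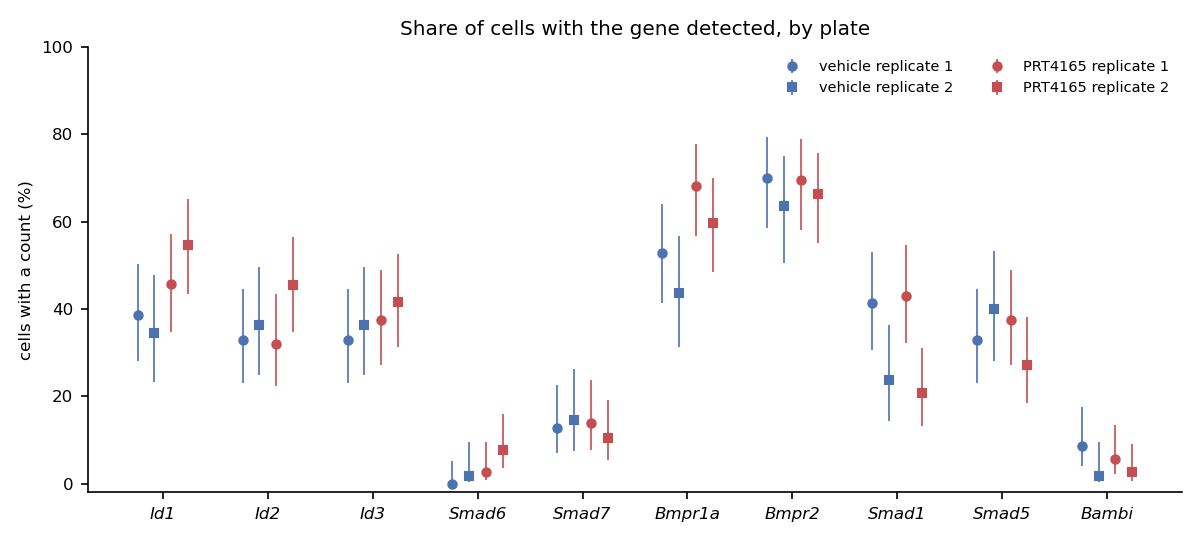
Percent of cells with at least 1 count of each member, for each plate (blue vehicle, red PRT4165; circles replicate 1, squares replicate 2), with 95% Wilson intervals that cover counting error only. The Id1 and Bmpr1a points with PRT4165 lie above those with vehicle while Smad1 splits by replicate number, at 41.4% and 43.1% against 23.6% and 20.8%.

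Most cells had 1 or none of the Id genes. Of 274 cells, 82 had none of Id1, Id2 and Id3, 95 had 1 of them, 62 had 2 and 35 had all 3. Cells with none made up 41.4% and 34.5% of the vehicle plates and 30.6% and 15.6% of the PRT4165 plates. Cells with all 3 made up 11.4% and 9.09% of the vehicle plates and 11.1% and 18.2% of the PRT4165 plates. These shares were not recomputed after thinning, and the median cell of vehicle replicate 1 had the fewest counts. Over cells within a plate, the Spearman correlation of log2(CPM + 1), averaged over the 4 plates, was 0.26 between Id2 and Id3, 0.23 between Id1 and Id2 and 0.22 between Id1 and Id3. The highest of the 28 pairs among the 8 members that entered was Id1 with Smad1, at 0.27. It ranged from 0.10 to 0.50 over plates. Of the pairs that join a receptor with an Id gene, Bmpr2 with Id2 was the highest, at 0.15. These values describe cells that share a plate and differ in depth, and in counts this sparse a weak correlation is no finding.

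By the same measure over 9254 genes, those most like Id3 were Tbx1 (0.41), a T-box transcription factor, Lhx2 (0.36), a homeobox factor of the follicle bulge, and Col18a1 (0.36), a basement membrane collagen. For Id1 they were Tanc2 (0.33), Cux1 (0.32) and Numb (0.32), and for Id2 they were Cck (0.34), 1700019D03Rik (0.34) and Igfbp7 (0.31). These are the highest of 9254 values for each gene, and how high the top of so many lies without a link was not tested. Over plates Col18a1 ranged from 0.15 to 0.54 and Lhx2 from 0.33 to 0.44. Cck had a count in 31 cells, Tbx1 in 34 and Lhx2 in 80.

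Cd34 encodes a surface protein that marks bulge stem cells of the mouse follicle. It had at least 1 count in 12 and 12 vehicle cells and in 12 and 16 PRT4165 cells, 52 in all, or 17.1% and 21.8% of the vehicle plates and 16.7% and 20.8% of the PRT4165 plates. In 35 of these 52 cells the Cd34 count was below 10, and the median Cd34 level of the 52 was 10.9 CPM. The median number of genes detected was 3582.5 in Cd34-positive cells and 3466 in the others. Of the listed bulge genes, Lhx2 was found in 46.2% of Cd34-positive cells against 25.2% of the others, Krt15 in 88.5% against 76.6% and Lgr5 in 19.2% against 13.1%, while Sox9 was found in 75.0% against 73.9% and Nfatc1 in 46.2% against 43.7%. The summed level of the listed fibroblast genes, of which 7 of 8 were in the table, was 229 CPM in Cd34-positive cells against 80.2 CPM. Sparc was found in 57.7% of Cd34-positive cells against 23.0% of the others, Col1a1 in 13.5% against 2.70%, Dcn in 17.3% against 9.01%, Fbln1 in 19.2% against 12.2%, Lum in 26.9% against 24.3% and Col1a2 in 3.85% against 5.41%, and Pdgfra in 0 against 2 cells. The part of such genes in what follows was not tested.

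Id3 had the largest fitted log2 fold change of the tested members beside Cd34. Among vehicle cells its level was 57.6 CPM in Cd34-positive cells and 21.0 CPM in the other cells of the first plate, and 158.4 against 38.1 CPM on the second. With PRT4165 it was 102 against 70 CPM and 95.7 against 41.2 CPM. Cd34-positive cells were higher on all 4 plates. Single cells carried much of this, as the highest Cd34-positive cell gave between 29.5% and 70.1% of a plate's Id3 counts in that class. The log2 fold change was 1.45 (SE 0.58), with an unadjusted p of 0.0366 and an adjusted p of 0.961 in edgeR's quasi-likelihood test, so Id3 did not pass. It stayed above 0 under all 12 alternatives, between 1.12 and 2.19, with adjusted p between 0.157 and 1 (edgeR, DESeq2 or limma). An Id3 count was present in 28 of 52 Cd34-positive cells and in 74 of 222 others. By plate this was 50%, 50%, 50% and 62.5% against 29.3%, 32.6%, 35% and 36.1%, a mean difference of 19.9 percentage points ± 4.95 (SD, n = 4 plates; exact sign-flip permutation p = 0.125, the smallest that 4 plates allow). After thinning, with the Cd34 class set again on the thinned counts, the difference was 28.5 points and had the same sign on every plate. Cells with few Cd34 counts can leave the class on thinning, so these need not be the same 52 cells.

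Id1 and Id2 went the same way on 3 of 4 plates. Id1 had 46.2, 22.1, 72.4 and 93.3 CPM in Cd34-positive cells of vehicle 1, vehicle 2, PRT4165 1 and PRT4165 2, against 37.8, 35.1, 38.6 and 37.1 CPM in the other cells. Vehicle replicate 2 was the exception, and the log2 fold change was 0.60 (SE 0.63, edgeR adjusted p = 0.982). Id2 had 99.97, 438, 211.8 and 40.9 CPM against 83.4, 60.8, 61.4 and 91.6 CPM, so PRT4165 replicate 2 was the exception, with a log2 fold change of 1.07 (SE 0.74, edgeR adjusted p = 0.961). On vehicle replicate 2 only 3 Cd34-positive cells had an Id2 count, and 1 of them gave 52.7% of it. Under a stricter filter on cells both signs turned, to -1.20 for Id1 and -3.11 for Id2. After thinning, with the Cd34 class set on the thinned counts, the share of cells with Id1 and with Id2 was higher in Cd34-positive cells on all 4 plates, by 29.7 and 19.8 percentage points. All 3 Id genes were present together in 12 of 52 Cd34-positive cells and in 23 of 222 others.

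Smad1 was also detected more often beside Cd34. It was found in 50%, 41.7%, 66.7% and 37.5% of Cd34-positive cells against 39.7%, 18.6%, 38.3% and 16.4% of the others, higher on every plate, with a mean difference of 20.7 percentage points ± 7.56 (SD, n = 4; exact sign-flip permutation p = 0.125). Its level did not follow. The Cd34-positive cells had 78.3 against 105 CPM and 47.2 against 58.4 CPM on the vehicle plates, and 258 against 49.3 CPM and 41.7 against 17.2 CPM on the PRT4165 plates. They were lower with vehicle and higher with PRT4165, and the log2 fold change over all plates was 0.85 (SE 0.63, edgeR adjusted p = 0.961). The share was higher on 3 of 4 plates after thinning, and likewise where 10 counts were needed for both the member and Cd34.

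Bmpr1a went the other way. It was detected in 33.3%, 25.0%, 66.7% and 50% of Cd34-positive cells against 56.9%, 48.8%, 68.3% and 62.3% of the others, lower on every plate, with a mean difference of -15.3 percentage points ± 10.6 (SD, n = 4; exact sign-flip permutation p = 0.125). After thinning it was lower on every plate, by -10.0 points on average, but with that minimum of 10 counts the difference was -3.32 points and lower on 3 of 4 plates, and without the mitochondrial filter it was -13.2 points and lower on 3 of 4. Its level was 235, 7.29, 141.8 and 43.5 CPM against 156.7, 99.2, 177.97 and 236 CPM. Vehicle replicate 1 had the opposite order, and the log2 fold change was -1.36 (SE 0.82, edgeR adjusted p = 0.961), or -2.15 without that plate and -0.63 without vehicle replicate 2. Bmpr2 had a log2 fold change of -0.66 (SE 0.54, edgeR adjusted p = 0.979) and nearly the same share of cells, 35 of 52 against 150 of 222. Smad5 had a log2 fold change of 0.61 (SE 1.01) and Smad7 of 0.99 (SE 1.11), each with an edgeR adjusted p of 0.98.

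Smad6 had a count in 0 of 52 Cd34-positive cells, which allows a share of up to 5.77%, and in 9 of 222 others, or 4.05%, so a difference was not detectable at this depth. Bambi was found in 5 of 52 Cd34-positive cells and in 8 of 222 others. Both fell below the filter on low counts.

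**Figure D3:**
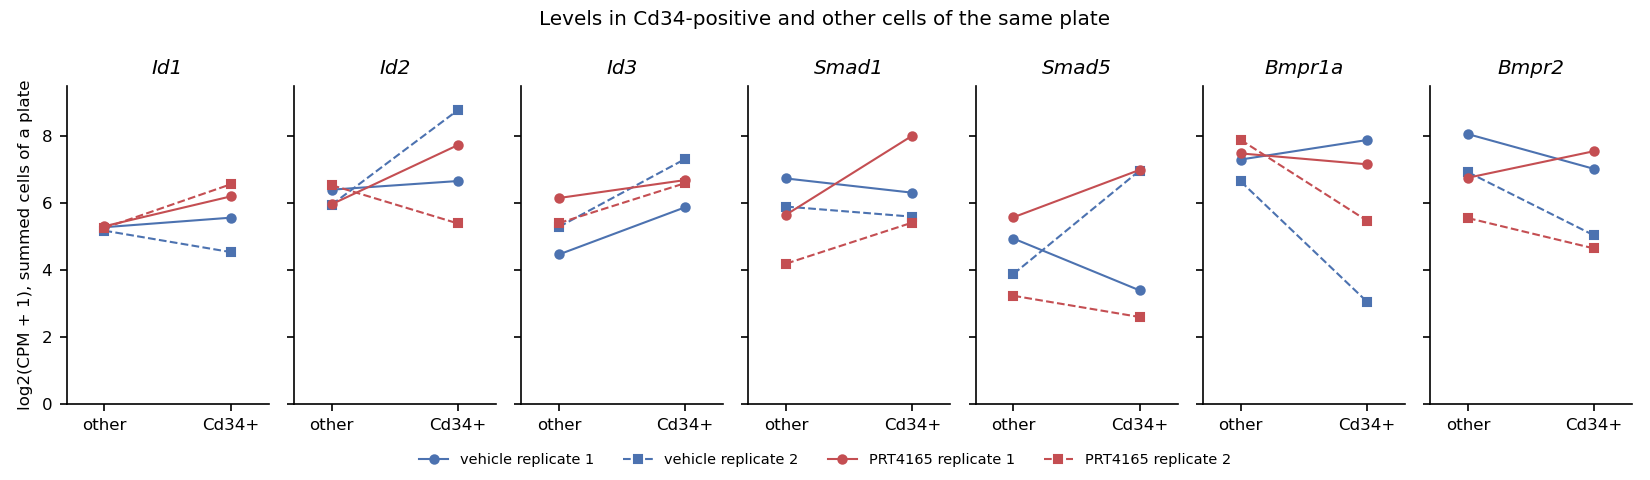
Level of 7 members, as log2(CPM + 1) of the summed cells, in Cd34-positive and other cells; each line joins the values of 1 plate (blue vehicle, red PRT4165; solid replicate 1, dashed replicate 2). The Id3 lines all climb, from 21.0, 38.1, 70 and 41.2 CPM to 57.6, 158.4, 102 and 95.7 CPM, and the lines of each of the other 6 members do not all go 1 way.

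Across the members, edgeR called 0 of the 8 tested against Cd34, and 0 of 10794 genes (0.0%). Id3 was the 1 member with an unadjusted p under 0.05, against 5.03% of genes in either direction and 1.18% higher, and DESeq2 called 0 members and 3.95% of genes. Of the 8 members, 6 had a log2 fold change above 0, and the share of all genes above 0 was not computed. The median over the members was 0.73, against -0.39 over all genes tested, and with each cell weighted equally it was 0.36 against -0.002. The level of 2 of the 8 (Id3 and Smad7) was higher on every plate, where 15.9% of genes had 1 sign on every plate, 3.55% higher and 12.4% lower. The share of positive cells had 1 sign on every plate for 4 of 10 members, 3 higher (Id3, Smad1 and Smad7) and 1 lower (Bmpr1a), against 12.7% of 13918 genes (5.29% higher and 7.39% lower).

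Whether PRT4165 acted differently on the members in Cd34-positive cells was tested as an interaction. The edgeR test called 0 of 8 members (0.0% of 10794 genes), with 0 members at an unadjusted p under 0.05 against 3.54% of genes, and DESeq2 called 0 members and 1.83% of genes. Smad1 had the smallest p, with a difference between the log2 fold changes of 1.88 (SE 1.08, edgeR unadjusted p = 0.126, adjusted p = 1). For Id3 the difference was -1.20 (SE 1.12), for Id2 -1.57 (SE 1.44) and for Id1 0.98 (SE 1.3).

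Mki67 is transcribed in dividing cells. It was found in 6 and 10 vehicle cells and in 16 and 11 PRT4165 cells, 43 in all, or 8.57% and 18.2% of the vehicle plates and 22.2% and 14.3% of the PRT4165 plates, and 9 of these cells also had Cd34. Mki67-positive cells were richer in genes, with a median of 4269 against 3262, and the part of this in the shares was not tested beyond thinning. The summed level of the 9 cycling genes was 2726 CPM in Mki67-positive cells against 427 CPM. This sum includes Mki67 itself, which defines the class. Of the others, Top2a was found in 62.8% of Mki67-positive cells against 14.3%, and Pcna in 88.4% against 78.4%. The summed level of the fibroblast genes was 249 CPM against 82.1 CPM, with Sparc in 51.2% against 25.5% of cells and Dcn in 25.6% against 7.79%. The part of the fibroblast genes in what follows was not tested.

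The receptors had the lowest p among the members. Bmpr1a had 30.98, 40.3, 49.99 and 185.3 CPM in Mki67-positive cells of vehicle 1, vehicle 2, PRT4165 1 and PRT4165 2, against 175.9, 92.6, 201.2 and 197.8 CPM in the others. All 4 plates were lower, the last of them by little. The log2 fold change was -1.71 (SE 0.63, edgeR unadjusted p = 0.0224, adjusted p = 0.471). Bmpr2 had 89.6, 95.8, 64.1 and 15.7 CPM against 247, 103, 133 and 45.1 CPM, again lower on all 4 plates, with a log2 fold change of -1.31 (SE 0.56, edgeR unadjusted p = 0.0433, adjusted p = 0.568). Neither passed. The shares did not go with the levels: Bmpr1a was detected in 26 of 43 Mki67-positive cells and in 130 of 231 others, and Bmpr2 in 79.1% and 65.4%. With each cell weighted equally, the log2 differences were 0.043 and 0.064.

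Id1 was detected more often in Mki67-positive cells on every plate, in 50%, 40%, 56.2% and 63.6% against 37.5%, 33.3%, 42.9% and 53.0%, a mean difference of 10.8 percentage points ± 2.99 (SD, n = 4; exact sign-flip permutation p = 0.125). After thinning it was higher on 3 of 4 plates and equal on the other, and where 10 counts were needed for both the member and Mki67 the difference was 0.51 points, higher on 2 plates and lower on 2. At that threshold Smad7 was the member with 1 sign on every plate, lower by -5.43 points on average. The Id1 level was 47.6, 19.7, 74.5 and 48.02 CPM against 38.98, 36.6, 36.7 and 48.8 CPM, higher on 2 plates and lower on 2, with a log2 fold change of -0.17 (SE 0.66, edgeR adjusted p = 0.979). Id3 was higher on 3 plates, with 101.8, 12.4, 121.9 and 177.5 CPM against 24.9, 82.01, 63.995 and 34.2 CPM, and a log2 fold change of 0.57 (SE 0.90, edgeR adjusted p = 0.934) that was -0.80 after thinning. Id2 had 156.002, 9.69, 30.8 and 76.4 CPM against 83.9, 189, 98.4 and 81.9 CPM, lower on 3 plates, with a log2 fold change of -1.46 (SE 0.86, edgeR adjusted p = 0.706). On PRT4165 replicate 2 it was found in 10 of 11 Mki67-positive cells, and on PRT4165 replicate 1 in 2 of 16.

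Of the Smads, Smad5 was detected in 22 of 43 Mki67-positive cells and in 71 of 231 others, higher on 3 plates and equal on PRT4165 replicate 2, while its log2 fold change was 0.13 (SE 0.73, edgeR adjusted p = 0.986). After thinning its share was higher on 3 plates and lower on 1. Smad1 had a log2 fold change of -0.66 (SE 0.76), Smad7 of -1.48 (SE 1.90), Smad6 of 2.22 (SE 1.86) and Bambi of -0.89 (SE 2.33), none of which passed.

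**Figure D4:**
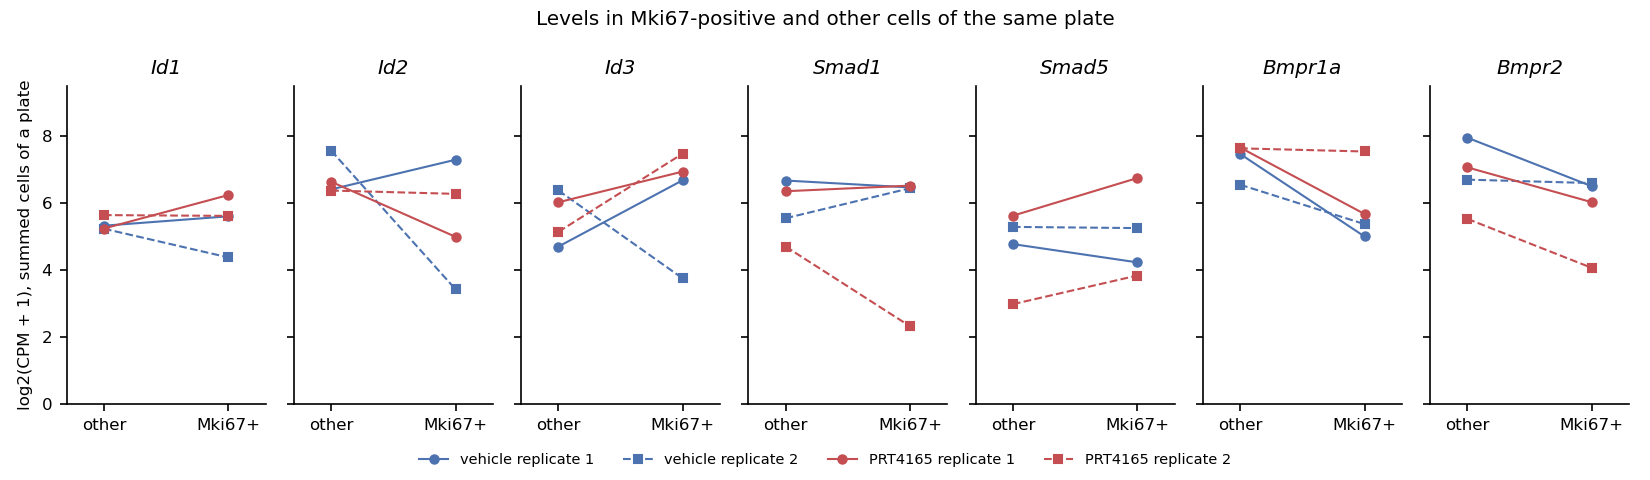
Level of 7 members, as log2(CPM + 1) of the summed cells, in Mki67-positive and other cells, 1 line per plate (blue vehicle, red PRT4165; solid replicate 1, dashed replicate 2). All Bmpr1a and Bmpr2 lines fall, while the Id2 lines cross, with 9.69 CPM in the Mki67-positive cells of vehicle replicate 2.

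For Mki67, edgeR called 0 of 10 members where it called 0.282% of 11004 genes. At an unadjusted p under 0.05 it found 2 members, both lower, against 8.51% of genes (6.43% lower), and DESeq2 called 0 members and 7.74% of genes. The level had 1 sign on every plate for 2 members, both lower, against 18.7% of genes (8.1% higher and 10.6% lower), and the share for 1 member, higher, against 22.2% (18.6% higher and 3.68% lower). The members' median log2 fold change was -0.78, against -0.37 over all genes tested. With each cell weighted equally all 10 members were above 0, with a median of 0.15 against 0.19 over all genes. The median of all genes thus changed sign together with that of the members, and lay above it both times. The share of all genes above 0 was not computed, so the change of sign is no result about the members.

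**Figure D5:**
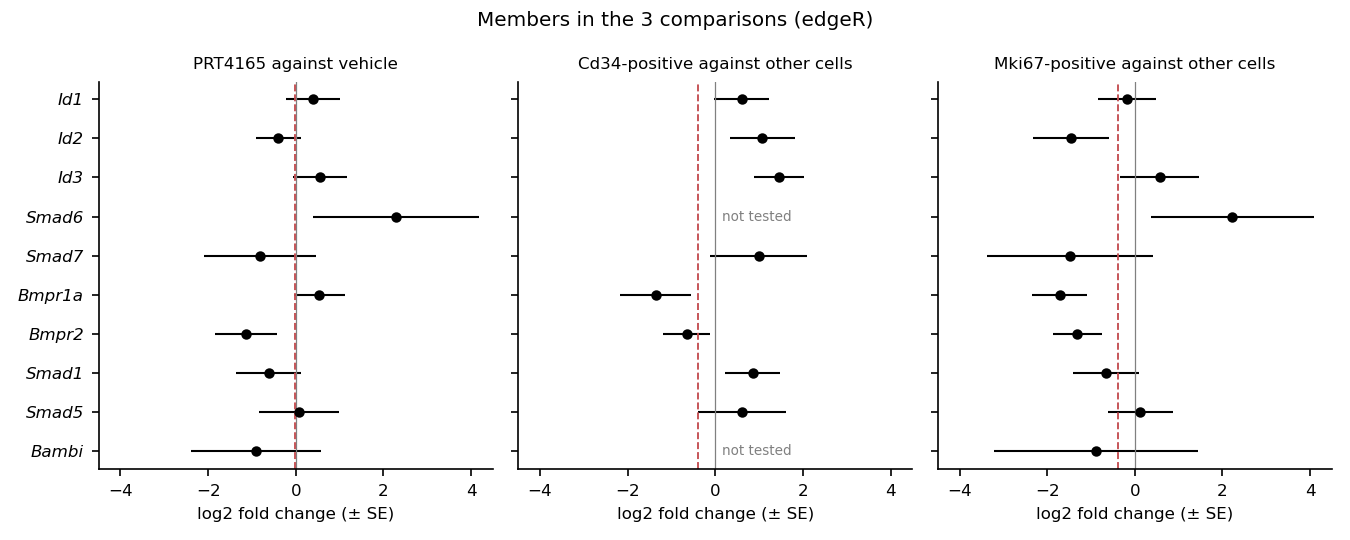
Log2 fold change of each member with its SE (edgeR) for PRT4165 against vehicle, Cd34-positive against other cells and Mki67-positive against other cells; the dashed line is the median of all genes tested and the grey line is 0. No member passed an adjusted p of 0.05, and the smallest unadjusted p of the Cd34 and Mki67 panels belong to Id3 (1.45) and Bmpr1a (-1.71).

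Of 80 other genes listed for the pathway, 65 were in the table. In edgeR 0 passed the adjusted threshold for treatment (58 tested), Cd34 (47 tested), Mki67 (50 tested) or the interaction. Those with an unadjusted p under 0.05 numbered 1 for treatment, 6 for Cd34, 3 for Mki67 and 1 for the interaction, where 4.93%, 5.03%, 8.51% and 3.54% of all genes did so. DESeq2 called 0 for treatment, 1 for Cd34 (Grem1), 4 for Mki67 (Id4, Pmepa1, Tgfbr2 and Tgfb2) and 1 for the interaction (Id4, a difference of -5.18 with SE 1.47 and an adjusted p of 0.0290), where it called 1.34%, 3.95%, 7.74% and 1.83% of all genes. With each cell weighted equally, limma called 1 beside Mki67, Tgif1, at 2.70 (SE 0.50, adjusted p = 0.0098). Grem1, Tgfb2 and Tgif1 lie outside the rule for named genes and were named after their values were seen. For treatment, the listed genes of smallest p found in at least 5 cells of each plate were Tob1, an antiproliferative gene that binds Smads, at 12.5 and 23.0 CPM with vehicle against 5.93 and 6.30 CPM with PRT4165, Tcf4, a basic helix-loop-helix factor, at 59.6 and 82.1 against 49.8 and 15.16 CPM, and Pmepa1, a TGF-beta target that restrains Smad signalling, at 8.73 and 6.80 against 1.90 and 3.27 CPM. Each had lower values on both PRT4165 plates and none passed (edgeR adjusted p = 0.997).

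Of the listed BMP antagonists, 6 of the 8 tested had a log2 fold change above 0 beside Cd34 (median 0.67). Of the 3 tested ligands 0 did (median -2.06), where the median of all genes was -0.39. In the other lists 2 of 5 receptors, 4 of 14 Smads and co-factors, 4 of 8 targets and 3 of 9 TGF-beta genes did. With each cell weighted equally, the medians were 0.57 over 9 antagonists and -0.072 over 7 ligands, against -0.002 over all genes. The share of all genes above 0 was not computed, so these counts are no result about the lists. The 3 genes of smallest p for Cd34 under the same rule were a pair of secreted binding proteins and a transcription factor. Fst, which traps activin and BMPs, had 35.3, 27.7, 31.7 and 33.6 CPM in Cd34-positive cells against 117.9, 69.5, 111.2 and 79.0 CPM in the others, lower on every plate, with a log2 fold change of -1.40 (SE 0.55, edgeR adjusted p = 0.961). Twsg1, a BMP-binding protein, had 227, 135.5, 223 and 99.6 CPM against 85.4, 77.2, 98.1 and 66.9 CPM, higher on every plate (log2 fold change 1.12, SE 0.44, edgeR adjusted p = 0.961), but -0.50 after thinning. Runx1, a transcription factor of the follicle, had 56.8, 24.4, 42.3 and 23.6 CPM against 7.86, 8.65, 10.9 and 12.4 CPM (log2 fold change 1.93, SE 0.81, edgeR adjusted p = 0.961), and -0.91 where a Cd34-positive cell needed 10 counts.

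For Mki67 they were Id4, the fourth Id gene, Pmepa1 and the TGF-beta receptor gene Tgfbr2. Id4 had 14.4, 7.44, 7.59 and 1.70 CPM in Mki67-positive cells against 37.0, 59.1, 51.6 and 17.4 CPM in the others, lower on every plate, with a log2 fold change of -2.89 (SE 0.81) and an adjusted p of 0.327 in edgeR, against 7.9e-04 in DESeq2. The values of Pmepa1 were -4.24 (SE 1.61) with an adjusted p of 0.490 in edgeR and 0.0210 in DESeq2. Those of Tgfbr2 were -2.47 (SE 1.06) with 0.568 in edgeR and 0.0420 in DESeq2. Their calls thus rested on the tool.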

How the data were processed

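The authors mapped single-end Smart-seq2 reads to the mouse transcriptome (build GRCm38) with Salmon 0.13.1 and deposited estimated counts per gene symbol and cell, unscaled. Of the deposited estimated counts above 0, 18.3% were not whole. Smart-seq2 has no molecular identifiers, and intervals and limits (3 counts) cover only counting error. All 289 columns matched a sample title. As in the study, cells needed at least 1000 genes and at most 50% mitochondrial counts, which left out 15 and kept 274. No doublet caller was run, since wells received single cells, and no pair of cells correlated above 0.946.

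Counts were summed per plate, or per plate and class (cells with or without at least 1 count of Cd34 or Mki67), rounded, filtered by filterByExpr, TMM-normalized and tested with edgeR 4.0.16 (quasi-likelihood, R 4.3.3) over all genes, adjusted by Benjamini-Hochberg at 0.05, with the plate as a block between classes. The class gene was left out of its own test. The SE beside an edgeR value is the absolute log2 fold change divided by the square root of the test's F statistic. Alternatives were DESeq2 1.42.0, limma 3.58.1, other filters, thinning, a threshold of 10 counts, omission of each plate and a replicate block. For limma, log2(CPM + 1) was averaged over the cells of each plate, or of each plate and class. Cells thus weighed equally, and these means, not the cells, were tested. Shares were tested by exact permutation over plates. CPM are counts-per-million of summed deposited counts, and lengths are summed exons of GRCm38 annotation. The edgeR tests of treatment, Cd34 and Mki67 were also run on simulated data, and the other tests were not.

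Members, lists and tests were chosen with earlier results of these data known. The text names all members, other pathway genes past the threshold or, where none passed, the 3 of smallest p found in at least 5 cells of every plate, and the 3 genes most like each Id gene among those in at least 10% of cells. The treatment label of the control cells reads AC and was taken as vehicle, since PRT4165 and vehicle are the treatments named (the methods dissolved drugs in acetone). The labels give both treatments batches named Replicate1 and Replicate2, which pairs the plates by label. Deviations of same-numbered plates from their group means correlated at 0.04 over 13919 genes.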

Additional observations from a re-analysis of the deposited data

Results flagged for a closer look

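A pair of members differed beside Cd34 in opposite directions under vehicle and under PRT4165, on every plate. The share of all genes that did so, here or beside Mki67, was not computed. The number of such members is therefore no result about them. Smad1 was lower in Cd34-positive than in other cells of the vehicle plates, by -27.2 and -11.2 CPM, and higher on the PRT4165 plates, by 208.7 and 24.5 CPM. The interaction test of edgeR gave a difference of 1.88 on the log2 scale (SE 1.08, unadjusted p = 0.126, adjusted p = 1), so a difference between the treatments was not shown. Bambi had 9.15 and 2.78 CPM more in Cd34-positive cells of the vehicle plates and -1.17 and -0.515 CPM on the PRT4165 plates, from 13 cells in all. It was filtered out, and the difference was not tested.

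Beside Mki67 the same held for Smad5 and Bambi. Smad5 differed by -8.61 and -0.945 CPM on the vehicle plates and by 58.2 and 6.37 CPM on the PRT4165 plates. Bambi differed by -2.25 and -0.813 CPM and by 0.429 and 2.997 CPM. The difference between treatments was not tested for Mki67. On PRT4165 replicate 1, the highest cell gave 69.6% of the Smad5 counts of the 16 Mki67-positive cells.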

How the results depend on the processing

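The number of members called stayed at 0 in every comparison and alternative run. With the replicate block the count for treatment was also 0, and the block changed no call (smallest adjusted p of a member 0.999, edgeR); Smad5 turned to -0.52 under it. Of 486 alternative log2 values of the members and of the other pathway genes named by rule, 439 kept sign and side of the threshold, 44 changed sign and 3 passed it, the DESeq2 values of Id4, Pmepa1 and Tgfbr2 beside Mki67. Each named pathway gene entered only in the comparison that named it, and the interaction entered only for Id1, Id2, Id3 and Smad1. The causes were not tested.

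The number of members whose shares did not overlap between treatments was 2 with positive cells set from 10 counts, 2 after thinning and 6 to 8 with 1 plate left out. Members with 1 sign of share on every plate beside Cd34 numbered 3 from 10 counts and 5 without the mitochondrial filter. Under the stricter filter (at least 2000 genes and at most 30% mitochondrial counts) they numbered 3. After thinning they numbered 4 (Id1, Id2, Id3 and Bmpr1a), and with 1 plate left out 5 to 7 (7 without vehicle replicate 2). Beside Mki67 they were 2 without the mitochondrial filter, 2 under the stricter filter, 0 after thinning and 1 to 3 with 1 plate left out. The share over all genes was not computed under these settings. With 1 plate left out, a lack of overlap and 1 sign are easier to reach, so these counts are no result about the members.

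The changes of sign, all in log2 fold changes, were as follows. For treatment, Id2 was 0.19 under the stricter filter and 0.14 in cells without Cd34, where Bambi was 1.78. In Cd34-positive cells Id3 was -0.25, Bmpr1a -0.81, Smad1 0.92, Smad5 -0.21 and Pmepa1 2.42. After thinning Smad7 was 0.37 and Smad5 -0.38, and with cells weighted equally Smad5 was -0.26. With 1 plate left out the ranges were -1.41 to 0.23 for Smad7 (highest without vehicle replicate 2), -1.77 to 0.057 for Smad1 (above 0 without vehicle replicate 1, and 0.019 without PRT4165 replicate 2), -1.94 to 0.90 for Smad5 (-1.94 without PRT4165 replicate 1, -0.032 without vehicle replicate 1) and -1.74 to 0.51 for Bambi (0.51 without vehicle replicate 1). Beside Cd34, the stricter filter gave -1.20 for Id1, -3.11 for Id2, -0.12 for Smad5 and -1.02 for Twsg1. Thinning gave -0.50 for Twsg1, equal weights 0.023 for Bmpr2 and a minimum of 10 counts -0.91 for Runx1. With 1 plate left out Smad5 ranged from -0.25 (without vehicle replicate 2) to 1.33. Beside Mki67, equal weights gave 0.67 for Id1, 0.12 for Id2, 0.011 for Smad7, 0.043 for Bmpr1a, 0.064 for Bmpr2, 0.54 for Smad1 and 0.015 for Bambi. Thinning gave -0.80 for Id3 and -0.76 for Smad5, a minimum of 10 counts -0.49 and -0.32, and the stricter filter -0.80 for Id3. With 1 plate left out the ranges were -0.46 to 0.023 for Id1 (highest without vehicle replicate 2), -0.12 to 1.37 for Id3 (lowest without PRT4165 replicate 2), -0.13 to 0.53 for Smad5 (below 0 without either PRT4165 plate) and -2.77 to 0.60 for Bambi (0.41 and 0.60 without vehicle replicate 1 and 2).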

Other observations

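Grem1, a secreted BMP antagonist, was named after its values were seen. It had a count in 14 of 52 Cd34-positive cells and in 10 of 222 others, and Cd34-positive cells were higher on all 4 plates, with 15.3, 40.8, 15.8 and 35.5 CPM against 7.95, 0.773, 0.107 and 1.55 CPM. The log2 fold change was 4.90 (SE 1.44) with an unadjusted p of 0.00944 and an adjusted p of 0.956 in edgeR, against 4.995 (SE 0.98) with an adjusted p of 1.4e-04 in DESeq2 and, with each cell weighted equally, 1.63 (SE 0.37) with 0.108 in limma. The call rested on the tool.

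Bmp7, the listed ligand found in the most cells (42.7% of 274), went the other way. It had a count in 15 of 52 Cd34-positive cells and in 102 of 222 others, and a level of 9.40 CPM ± 9.47 against 26.5 CPM ± 8.86 (SD, n = 4 plates), lower in Cd34-positive cells on all 4 plates. The log2 fold change was -2.06 (SE 1.09, edgeR adjusted p = 0.961). It too was named after its values were seen.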
